A study of Mus musculus with 12 samples.

Results

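Moxd1, Adgrf1, Obp2a, Elovl3, Cyp2d9 and Selenbp2 are 6 mouse liver genes kept on by pulsatile growth hormone, or with the pattern of such genes in these livers, out of the 24532 genes counted. They were picked by symbol with their levels in these 4 groups already known, so the levels and fold changes of the 6 are given as a description, with no test. All 6 passed the filter on low counts, as did 14038 genes in all.

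RNA-seq was done on 12 livers, 3 from each of 4 groups. The mice were males of the C57BL/6 background, 10 to 12 weeks old when the diets began. Every animal carried the floxed Ahr allele (Ahr fl/fl), whose loxP sites lie around the second exon. Mice that also carried Alb-Cre, a Cre recombinase driven by the albumin promoter and therefore active in hepatocytes, are called Ahr HKO, and the littermates that lacked Cre are called WT. Ahr encodes the aryl hydrocarbon receptor, a ligand-activated transcription factor. Either genotype received a Lieber-DeCarli liquid diet in which ethanol was 5% of the volume and 36% of the calories, or an isocaloric liquid control diet, for 5 weeks. The cells of the liver other than hepatocytes keep Ahr in this model. The labels give each of the 3 livers of a group a replicate number. The sample descriptions and column names add a second number, and some of these recur between groups. What either number stands for is not stated, so error is the spread between livers.

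Growth hormone is released by the pituitary in pulses in male rodents and nearly continuously in females. Each pulse activates the receptor Ghr, the kinase Jak2 and the transcription factor Stat5b in hepatocytes, and the rhythm of that signal keeps a set of liver genes high in males and another set high in females. Bcl6 and Cux2 are transcriptional repressors of this system, Bcl6 acting on female-biased genes and Cux2 on male-biased ones. Male-biased liver genes include the major urinary proteins, several cytochrome P450 enzymes and steroid-metabolizing enzymes.

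The genes lie on 6 chromosomes. On GRCm38 Moxd1 spans chr10:24223517-24302783, Adgrf1 spans chr17:43270283-43325876, and Obp2a spans chr2:25697577-25703326. Elovl3 spans chr19:46131897-46135694, Cyp2d9 spans chr15:82452377-82456827, and Selenbp2 spans chr3:94693573-94704406. No other annotated gene overlaps 5 of them, and Pitx3 overlaps Elovl3. Pitx3 stood at 0 to 0.218 CPM in the 12 livers, far below Elovl3.

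The promoter windows, 250 bases before to 50 bases after an annotated start, were taken from RefSeq (GRCm38.p6) for the 5 members with an entry, all on the plus strand. They are shown because all 5 genes were lower in WT livers on ethanol, and because the letters of growth hormone and other liver factors can be looked for in them. Capitals mark every match, on either strand, to the STAT5 core TTCNNNGAA, the HNF6/CUX2 core ATTGAT, the HNF4 core CAAAGTCCA, the TATA box TATAAA, the xenobiotic response core GCGTG bound by the Ahr dimer, or the ROR core AGGTCA. No matches overlap each other.
Moxd1 (chr10:24223267-24223566): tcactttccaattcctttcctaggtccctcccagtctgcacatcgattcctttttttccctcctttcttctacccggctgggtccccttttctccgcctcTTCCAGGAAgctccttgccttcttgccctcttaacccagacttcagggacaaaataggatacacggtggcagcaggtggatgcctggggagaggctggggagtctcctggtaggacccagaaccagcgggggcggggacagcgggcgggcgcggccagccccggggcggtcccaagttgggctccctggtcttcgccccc
Adgrf1 (chr17:43270097-43270396): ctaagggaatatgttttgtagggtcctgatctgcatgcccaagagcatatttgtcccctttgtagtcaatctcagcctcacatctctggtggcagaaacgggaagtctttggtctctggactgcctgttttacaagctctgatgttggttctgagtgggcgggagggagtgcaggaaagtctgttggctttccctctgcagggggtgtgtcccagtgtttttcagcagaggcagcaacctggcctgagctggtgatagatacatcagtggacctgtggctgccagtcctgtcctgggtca
Obp2a (chr2:25699824-25700123): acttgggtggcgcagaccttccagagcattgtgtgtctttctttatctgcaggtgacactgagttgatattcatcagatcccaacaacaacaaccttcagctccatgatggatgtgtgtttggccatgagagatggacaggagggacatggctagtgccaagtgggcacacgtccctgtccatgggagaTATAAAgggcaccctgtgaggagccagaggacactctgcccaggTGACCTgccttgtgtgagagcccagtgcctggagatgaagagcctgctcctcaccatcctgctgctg
Cyp2d9 (chr15:82452127-82452426): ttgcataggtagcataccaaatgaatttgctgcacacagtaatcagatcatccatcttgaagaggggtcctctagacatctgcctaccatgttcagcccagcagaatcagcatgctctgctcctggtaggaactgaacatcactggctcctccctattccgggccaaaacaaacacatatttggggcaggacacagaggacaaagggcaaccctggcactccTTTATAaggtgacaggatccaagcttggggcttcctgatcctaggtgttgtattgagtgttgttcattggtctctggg
Selenbp2 (chr3:94693323-94693622): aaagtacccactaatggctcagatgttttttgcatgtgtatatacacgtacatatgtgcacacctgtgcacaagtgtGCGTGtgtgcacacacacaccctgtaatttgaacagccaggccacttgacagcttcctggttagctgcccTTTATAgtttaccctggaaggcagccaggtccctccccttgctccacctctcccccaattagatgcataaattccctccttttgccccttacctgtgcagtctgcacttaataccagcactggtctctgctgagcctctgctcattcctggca
The STAT5 core was in the Moxd1 window alone of the 5, 150 bases before the start, and in 8.3% of the 32851 windows of the genome. TATAAA was read toward the start in Obp2a, 61 bases before it, and on the opposite strand in Selenbp2 and Cyp2d9. That motif was in 13.6% of all windows. The xenobiotic response core was in the Selenbp2 window alone of the 5 and in 32.4% of all windows, and the ROR core was in the Obp2a window alone of the 5 and in 16.3% of all. The HNF6/CUX2 core (7.54% of all windows) and the HNF4 core (0.475%) were in none of the 5. A match or its absence describes these letters in these windows and nothing more.

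Depth was high, with 46306518 to 74336255 reads counted on genes per library, and 3 counts correspond to 0.0425 to 0.0677 CPM, the unit of all levels unless FPKM is named (counts over library totals scaled by TMM factors). Ahr itself stood at 16.6 to 20.1 CPM in WT livers on the control diet, 20.8 to 30.5 in WT on ethanol, 41.3 to 65.5 in Ahr HKO on the control diet and 24.7 to 41.8 in Ahr HKO on ethanol. The deletion removes 1 exon while the count covers the whole gene, so these values cannot check it, and the groups are named as labelled. The 8 hepatocyte markers summed to 91843 to 150235 CPM, and 4 of 6 pancreatic markers had no reads in any group. The sum of the pancreatic list came nearly all from the elastase Cela1. It was 20.9 to 30.6 CPM in WT on control and 8.57 to 10.3 in WT on ethanol. In Ahr HKO it was 9.87 to 22.9 on control and 19.4 to 30.1 on ethanol. The sum had its lowest median in WT on ethanol, where all members but Cyp2d9 had their lowest mean. In Ahr HKO its median was higher on ethanol than on control. Of the members 4 had a higher estimate on ethanol there, Selenbp2 by a log2 difference of only 0.05, and Moxd1 and Adgrf1 were lower. Cela1 and Cela2a were lower on ethanol in WT (log2 change -1.35 ± 0.17, adjusted p = 0.00611, and -3.84 ± 0.80, adjusted p = 0.0298). Cela1 was higher in Ahr HKO on ethanol (1.40 ± 0.17) with an interaction of 2.1 ± 0.41, and Cela2a was lower in Ahr HKO on control (-2.83 ± 0.48). Their part in the values of the members was not tested. Liver 3 of the Ahr HKO group on the control diet and liver 1 of the Ahr HKO group on ethanol stood apart from their own replicates. Their chi-square statistic per gene against the other livers of their groups was 291 and 310.3, and 257 and 284, while it was 68 to 167 for the other pairs of replicates. In bulk RNA, fewer cells of a type and less RNA per cell cannot be told apart.

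The 6 genes span a wide range of abundance. As the mean of 3 WT livers on the control diet, on the deposited FPKM scale that corrects for gene length, Cyp2d9 stood at 1013 ± 94.1 (SD, n = 3) and Selenbp2 at 911 ± 40.3. Elovl3 followed at 107 ± 9.74, Moxd1 at 22.7 ± 23.9, Adgrf1 at 2.86 ± 1.6 and Obp2a at 0.962 ± 0.747. Cyp2d9, Selenbp2 and Elovl3 were the abundant ones and varied little between these livers, while Moxd1 and Obp2a had an SD close to the mean.

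**Figure D1:**
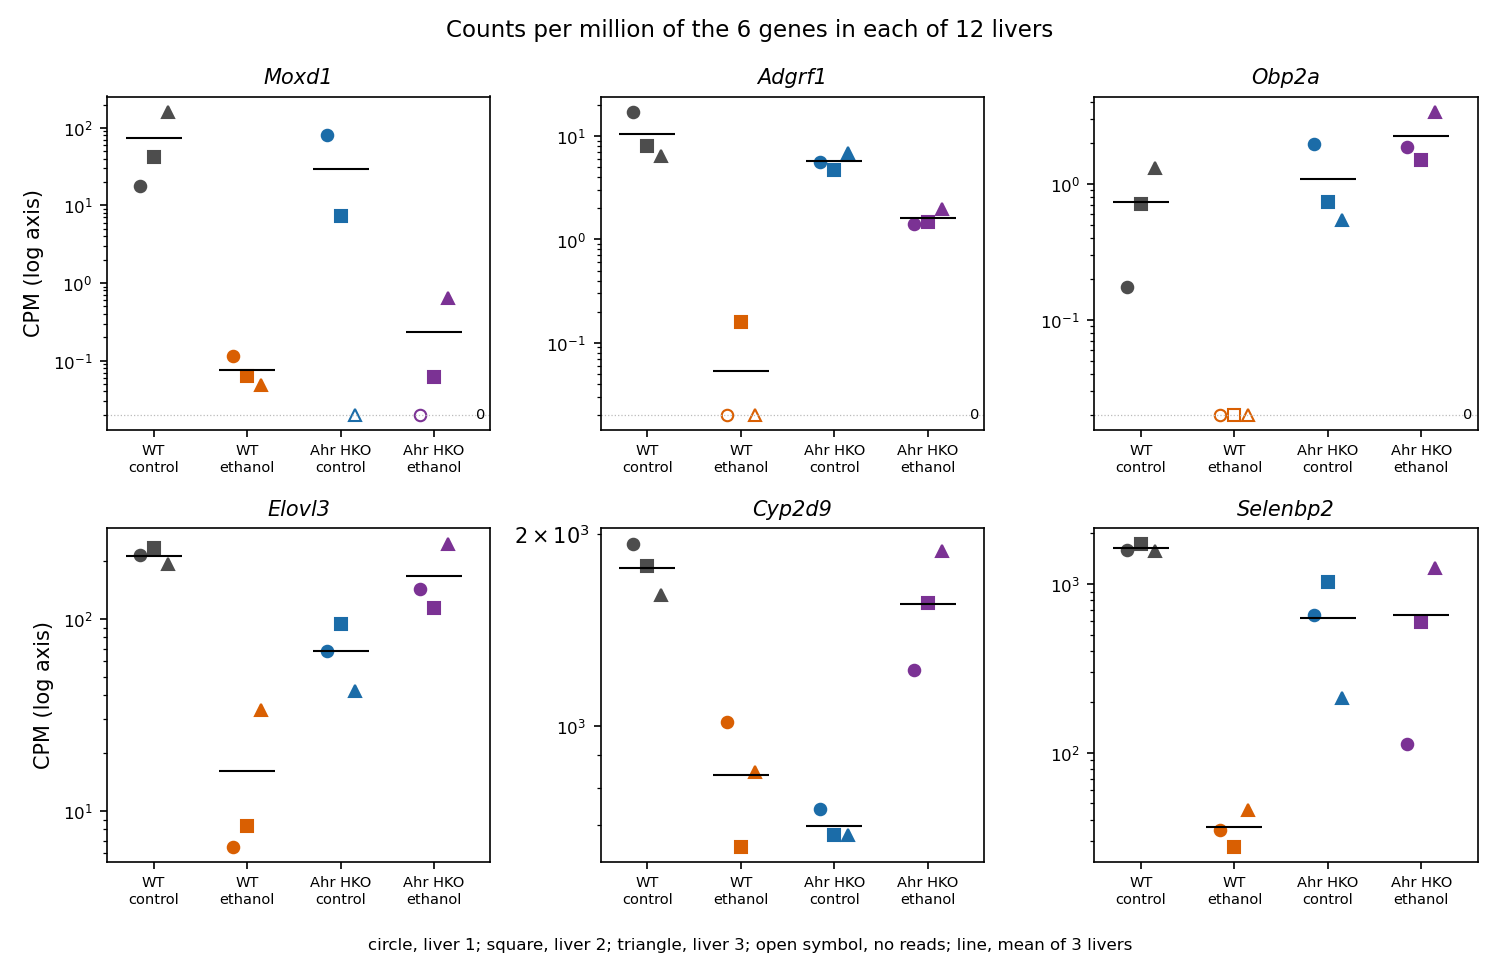
CPM (log axis) of the 6 genes in each liver of the 4 groups, with open symbols at the foot for livers without reads and a line at the mean of 3 livers. All 6 genes, which were chosen on these groups, are lower in every WT liver on ethanol than in any WT liver on the control diet. Of all tested genes 32.9% lack overlap there, in either direction. Selenbp2 runs from 113 to 1250.0 CPM among the 3 Ahr HKO livers on ethanol.

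Selenbp2 encodes a selenium-binding protein of the liver that is nearly identical to Selenbp1. In WT livers on the control diet it stood at 1597, 1740.1 and 1573 CPM, and on ethanol at 34.9, 27.7 and 45.6 CPM. The groups were far apart and each was tight. The difference was -5.49 ± 0.22 on the log2 scale (edgeR coefficient ± SE, 3 against 3 livers), or 45.1-fold lower on ethanol. In Ahr HKO livers it stood at 654, 1031 and 211 CPM on the control diet and at 113, 592 and 1250.0 CPM on ethanol. These groups overlapped throughout, and the livers of either group that were lowest, liver 3 and liver 1, are those that stood apart over all genes. Each of these livers held well below its replicates, 0.25 and 0.123 times the mean of the other livers of its group. The log2 difference between the diets in Ahr HKO was 0.05 ± 0.83, and 0.13 without both of those livers. Every Ahr HKO liver on either diet lay above all WT livers on ethanol, and below all WT livers on the control diet.

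Elovl3, a fatty acid elongase that makes very long saturated and monounsaturated chains, changed side with the genotype. It stood at 214, 235 and 192 CPM in WT livers on the control diet and at 6.51, 8.33 and 33.7 CPM on ethanol. Liver 3 on ethanol was 5.17 times liver 1, and still below every other group. In Ahr HKO livers Elovl3 stood at 67.8, 94.5 and 42.1 CPM on the control diet and at 143, 114 and 247 CPM on ethanol, without overlap. The diet difference was -3.71 ± 0.63 on the log2 scale in WT and 1.31 ± 0.36 in Ahr HKO. Without liver 3 of WT on ethanol the former was -4.83, and the genotype difference on ethanol was 4.49. On the control diet Ahr HKO livers were lower than WT livers (log2 difference -1.65 ± 0.27), and on ethanol they were higher (3.38 ± 0.68).

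Cyp2d9, a cytochrome P450 that hydroxylates testosterone, had the same crossing at a smaller size. WT livers on the control diet held 1934, 1781 and 1603 CPM, and WT livers on ethanol held 1015, 647 and 848 CPM. Ahr HKO livers held 742, 676 and 674 CPM on the control diet and 1226, 1559.6 and 1885 CPM on ethanol. Neither pair of diet groups overlapped, and the Ahr HKO livers on the control diet overlapped with the WT livers on ethanol. The diet difference was -1.07 ± 0.18 on the log2 scale in WT and 1.16 ± 0.18 in Ahr HKO, and the genotype difference was -1.34 ± 0.13 on the control diet and 0.90 ± 0.21 on ethanol.

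Moxd1, a copper-dependent monooxygenase related to dopamine beta-hydroxylase, was the most variable. Its levels in WT livers on the control diet were 17.7, 41.9 and 162 CPM, a 9.15-fold range within the group. On ethanol the WT livers had 6, 4 and 3 reads in all, or 0.113, 0.0636 and 0.0478 CPM, which is -9.92 ± 1.16 on the log2 scale from the control diet, and -8.62 without liver 3 on control. Ahr HKO livers on the control diet covered nearly the whole scale, with 81.5, 7.25 and 0 CPM, and liver 3 had no read where liver 1 had 4992. On ethanol the Ahr HKO livers had 0, 0.0617 and 0.631 CPM, so Moxd1 was near the limit of detection in both genotypes on ethanol. The log2 difference between diets in Ahr HKO was -7.26 ± 2.27, with overlapping groups, since a liver without reads was on the control diet too. The differences between the genotypes were within the spread, -1.32 ± 1.58 on control and 1.54 ± 1.39 on ethanol, and the latter was -1.24 without liver 3 of Ahr HKO.

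Adgrf1 encodes an adhesion G protein-coupled receptor. Its levels were 17.4, 8.11 and 6.42 CPM in WT livers on the control diet, and on ethanol liver 2 had 10 reads (0.159 CPM) and the other livers none. In Ahr HKO livers they were 5.68, 4.73 and 6.86 CPM on the control diet and 1.4, 1.48 and 1.96 CPM on ethanol. Adgrf1 was thus lower on ethanol in either genotype without overlap of the livers, by -7.50 ± 0.87 on the log2 scale in WT and by -1.84 ± 0.22 in Ahr HKO. The size of the WT difference rests on the 10 reads of liver 2. The Ahr HKO livers on ethanol nevertheless lay above all WT livers on ethanol.

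Obp2a, a lipocalin of the odorant-binding proteins, was the scarcest of the 6. It had 8, 40 and 64 reads in WT livers on the control diet (0.175, 0.714 and 1.31 CPM) and no read in the 3 WT livers on ethanol. Against a floor of 3 counts per library this is at least 14.4-fold lower on ethanol. Ahr HKO livers held 1.94, 0.734 and 0.545 CPM on the control diet and 1.86, 1.48 and 3.38 CPM on ethanol, at least 44.2-fold higher than WT on the same diet. Unlike the other members, Obp2a had its highest mean, 2.24 ± 1.01 CPM, in Ahr HKO livers on ethanol, and those livers overlapped with the Ahr HKO livers on control and lay above the WT livers on control.

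**Figure D2:**
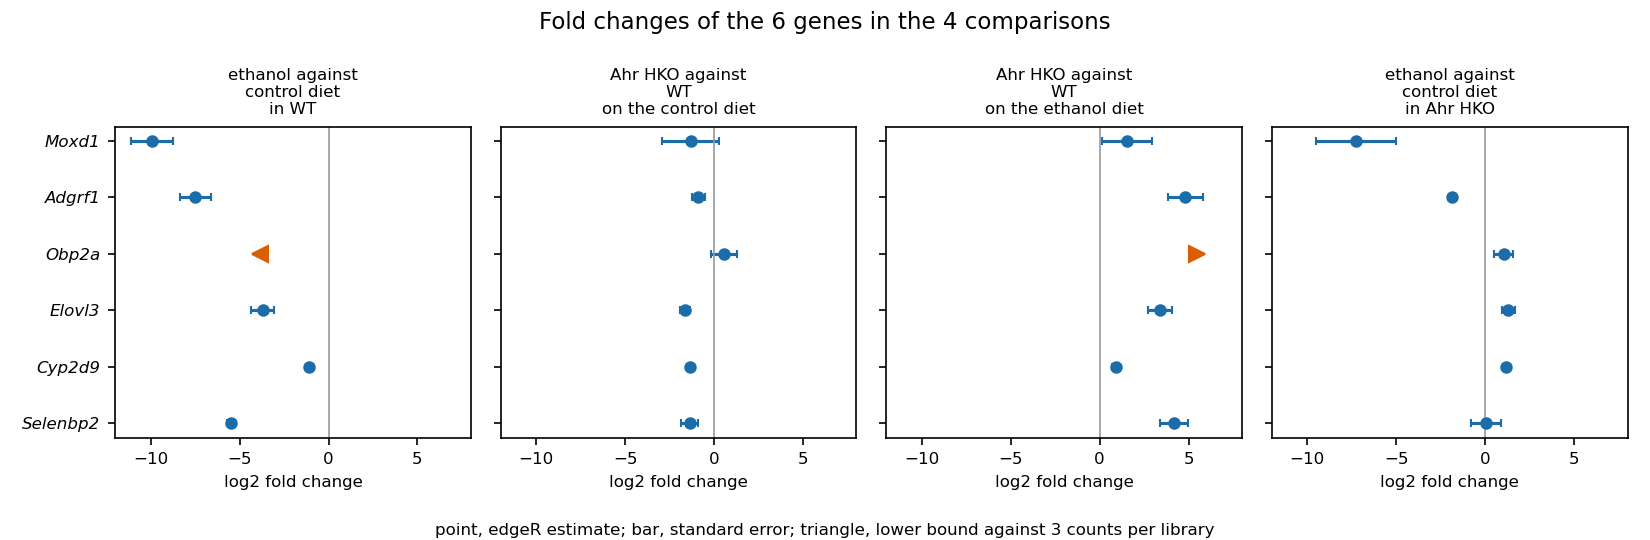
Log2 fold changes of the 6 genes in the 4 comparisons, as edgeR estimates with standard errors (n = 3 livers per group), and orange triangles for lower bounds against 3 counts per library. In WT all 6 lie left of 0, and in Ahr HKO the diet difference runs from -7.26 for Moxd1 to 1.31 for Elovl3.

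The order of the 4 group means was not shared by the 6. For Moxd1 and Adgrf1 it was WT on control, Ahr HKO on control, Ahr HKO on ethanol and WT on ethanol. For Elovl3 and Selenbp2 WT on control was again first and WT on ethanol last, but the Ahr HKO livers on ethanol came before those on the control diet. Cyp2d9 had WT on ethanol above Ahr HKO on the control diet, the only member whose lowest mean was not in WT on ethanol. Obp2a had WT on ethanol last as well, after both Ahr HKO groups and WT on control. No member had the livers of all 4 groups apart. For Moxd1 all 3 steps overlapped. For Selenbp2 the means of the middle pair, 652 and 632 CPM, could not be ordered, and on the deposited FPKM scale they stood the other way around, at 347 for Ahr HKO on ethanol and 366 for Ahr HKO on control. The other 5 members kept their order in FPKM.

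Counted by a fixed call rule, an adjusted p under 0.05 from edgeR's quasi-likelihood test over 14038 genes and a fold change over 1.5, all 6 members were lower on ethanol in WT, and the rule called 3.4% of all genes lower and 3.36% higher. For Ahr HKO against WT on the control diet it counted 2 members as lower, Elovl3 and Cyp2d9, with 10.1% of all genes lower and 9.77% higher. On the ethanol diet it counted Obp2a as higher in Ahr HKO, with 0.684% of all genes higher and 0.378% lower. In Ahr HKO it counted 2 members as higher on ethanol (Elovl3 and Cyp2d9) and 2 as lower (Moxd1 and Adgrf1), with 10.3% and 11.7% of all genes. The interaction of genotype and diet, called at an adjusted p under 0.05, counted 5 members with a higher log2 diet effect in Ahr HKO than in WT, Moxd1 being the exception, with 11.2% of all genes in that direction and 11.1% in the other. Nothing is read from these counts, because the members were chosen on these contrasts. The comparisons also share groups: the same WT control livers enter the diet comparison in WT and the genotype comparison on the control diet.

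Within groups the same livers were high or low for several members. Liver 3 of Ahr HKO on ethanol was the highest of its group for all 6, and liver 1 the lowest for 4 of 6. Liver 3 of Ahr HKO on the control diet was the lowest of its group for 5 of 6, Adgrf1 being the exception at 6.86 CPM, the highest of its group. Among the WT livers liver 3 on the control diet was the lowest of its group for 4 of 6, and no liver was highest for more than 2 members. Cyp2b9, a cytochrome P450 of the female liver, had no read in livers 1 and 2 of Ahr HKO on the control diet and 33.7 CPM in liver 3. It stood at 265 CPM in liver 1 of Ahr HKO on ethanol and at 48.1 and 70.2 CPM in livers 2 and 3.

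A list of 20 other genes that are male-biased in mouse liver, written with earlier results of these data known, was set beside the members. On ethanol in WT, 15 of the 20 fell and 5 did not pass the test, with a median log2 change of -2.54 over the list and 0.03 over all tested genes. Hsd3b5, a steroid dehydrogenase, went from 256, 241 and 252 CPM to 0, 0.143 and 0.605 CPM (log2 change -9.89 ± 0.76, adjusted p = 0.00138). The fatty acid hydroxylase gene Cyp4a12b fell from 70.4 to 131 CPM to 1.27 to 1.53 CPM (log2 change -6.28 ± 0.29, adjusted p = 0.000292). Mup7, a major urinary protein, fell from 13582 to 23840.4 CPM to 203 to 615 CPM (log2 change -5.64 ± 0.50, adjusted p = 0.00212). Cyp4a12a (-4.98), the complement gene C6 (-3.88), Mup1 (-3.67), the complement inhibitor Susd4 (-2.68) and the oxysterol hydroxylase Cyp7b1 (-2.66) also fell. Single values of the Mup and Cyp4a12 genes are uncertain, because reads of near-identical copies can be assigned to either.

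On the control diet 7 of the 20 male-biased genes were lower in Ahr HKO than in WT and Egfr was higher, with a list median of -0.66 against 0.00 over all genes. Hsd3b5 stood at 9.15, 27 and 18.4 CPM in Ahr HKO (log2 difference -3.78 ± 0.37, adjusted p = 0.00112), while Cyp4a12a and Cyp4a12b did not pass. Without liver 2 of WT, or without liver 1 of Ahr HKO, 5 of the 20 were called in place of 8. On ethanol 8 of the 20 were higher in Ahr HKO than in WT, among them Hsd3b5 (7.94 ± 1.14), Cyp4a12b (6.05 ± 0.33), Mup7 (4.98 ± 0.67) and Susd4 (2.17 ± 0.27), and the list median was 1.86 against -0.01. The number rested on single livers, being 2 without liver 2 or without liver 3 of Ahr HKO on ethanol and 3 without liver 1 or without liver 2 of WT on ethanol. In Ahr HKO the diet moved few of them: Gstp1, Ugt2b1, Susd4 and Mup3 rose and Egfr fell. The count of 5 was 2 or 3 without liver 1 or liver 2 on the control diet or without liver 2 or liver 3 on ethanol. For 17 of the 20 the diet effect differed between the genotypes, each time with a higher log2 value in Ahr HKO, by 11.72 ± 1.25 for Hsd3b5 (adjusted p = 0.000314) and 3.44 ± 0.32 for Susd4 (adjusted p = 0.000167).

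**Figure D3:**
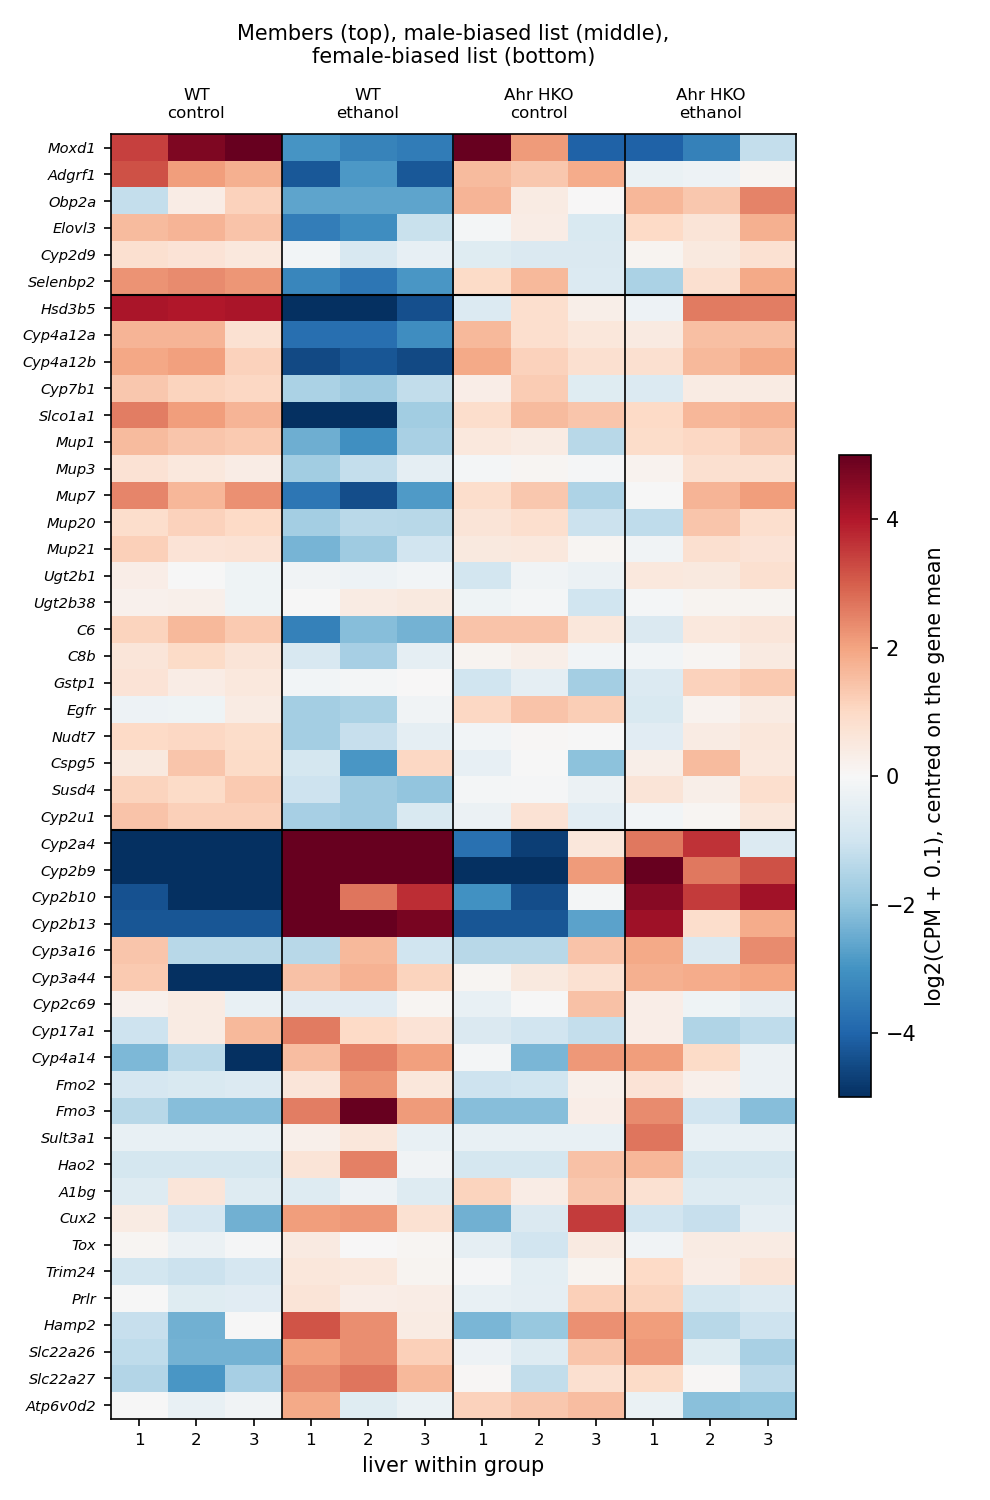
Log2(CPM + 0.1) of the 6 members, the 20 male-biased genes and the 22 of 25 female-biased genes with at least 50 reads over all libraries, centred on each gene's mean, in each of the 12 livers. Most male-biased genes are at their lowest in the WT livers on ethanol, and Cyp2a4, Cyp2b9 and Cyp2b13 have no reads in the WT livers on the control diet.

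The tested genes of the female-biased list went the other way in WT. Of 25 genes 20 could be tested. On ethanol 12 of these rose and 8 were not called, with a median of 2.99 over the tested genes. The genes too scarce to test are outside these numbers. They had at most 15 reads in any WT liver, so they stayed off or nearly off on ethanol. Cyp2b9, Cyp2a4 and Cyp2b13, all cytochrome P450 genes, had no read in WT livers on the control diet and stood at 353 to 793, 207 to 471 and 52.3 to 144 CPM on ethanol. Against 3 counts per library these are at least 9607-fold, 5723-fold and 1804-fold higher, with an adjusted p of 0.000979, 0.0012 and 0.00249. The count of 12 became 7 without liver 2 or without liver 3 of WT on the control diet. It was 5 with at least 10 counts in every library, a filter that drops genes without reads in any liver. In Ahr HKO livers Cyp2b13 (log2 change 7.97 ± 1.41), Cyp2b10 (5.66 ± 1.11), Cyp3a44 (1.41 ± 0.17) and the coregulator Trim24 (0.80 ± 0.22) rose on ethanol, and Atp6v0d2, a proton pump subunit, fell. The count of 5 in that comparison became 9 without liver 3 of Ahr HKO on the control diet. Cux2 stood at 0.812 to 2.29 CPM in WT and 0.139 to 0.293 CPM in Ahr HKO on ethanol (log2 difference -3.14 ± 0.53, adjusted p = 0.0489). It was the 1 female-biased gene called there, and the count was 0 without liver 1 or liver 2 of WT or without liver 2 or liver 3 of Ahr HKO, and 3 without liver 1 of Ahr HKO. In liver 3 of Ahr HKO on the control diet it stood at 5.91 CPM, the highest of the 12, and in livers 1 and 2 at 0 and 0.222 CPM.

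The growth hormone pathway itself was examined with 17 genes. In WT none passed the test between the diets with edgeR, where 3.4% of all genes were called lower and 3.36% higher. Of the 17 genes, 3 had an unadjusted p under 0.05, and DESeq2 called 1. Without liver 3 of WT on the control diet edgeR called 1 as well. Ghr, the growth hormone receptor, stood at 432, 319 and 303 CPM on control and 292, 157 and 319.9 CPM on ethanol, and the groups overlapped (log2 change -0.45 ± 0.27, adjusted p = 0.338). Stat5b, which carries the pulse signal to the nucleus, stood at 66.4 to 85.6 CPM and 51.1 to 67.6 CPM (adjusted p = 0.131). Igf1, the main hormone induced by growth hormone in liver, stood at 281 to 391 CPM and 249 to 369 CPM. Larger shifts that were not called were seen too. Bcl6 had the lowest log2 change of the list, -2.01, from 66.3, 43.3 and 11.1 CPM to 8.82, 7.7 and 13.2 CPM. Socs3 went from 17, 37.9 and 11.7 CPM to 7.82, 14.3 and 9.47 CPM. The groups overlapped for both genes. Of the 17 genes 10 had a lower estimate on ethanol and 7 a higher one.

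In Ahr HKO livers 2 of the 17 pathway genes were called higher on ethanol and 4 lower. Of all genes 10.3% were called higher and 11.7% lower in that comparison. Ghr rose from 217, 205 and 269 CPM to 377, 352 and 329 CPM (log2 change 0.61 ± 0.14, adjusted p = 0.0192). Igfals, the acid-labile subunit that carries IGF1 in blood, rose from 25.9, 38 and 56.2 CPM to 129, 112 and 94.5 CPM (1.48 ± 0.28, adjusted p = 0.00939). The feedback inhibitors Socs2, Socs3 and Cish and the phosphatase Ptpn1 fell. Socs2 went from 18.6, 21.8 and 58.7 CPM to 4.01, 4.72 and 4.64 CPM (-2.89 ± 0.45, adjusted p = 0.00536), and Ptpn1 from 127, 84.6 and 113 CPM to 24.7, 26.5 and 28 CPM (-2.04 ± 0.17, adjusted p = 0.00134). The log2 change was -1.85 ± 0.42 for Socs3 and -2.48 ± 0.75 for Cish, whose groups overlapped.

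Between the genotypes on the control diet, Ptpn1 (log2 difference 1.95 ± 0.16), Socs3 (1.56 ± 0.46), Hnf4a (0.97 ± 0.14) and Stat3 (0.89 ± 0.16) were higher in Ahr HKO. Ghr (-0.60 ± 0.18) and Igfals (-1.38 ± 0.27) were lower, where 9.77% of all genes were called higher and 10.1% lower. On ethanol Cish was lower in Ahr HKO (-2.17 ± 0.23, adjusted p = 0.0181) and Bcl6 was higher. Of all genes 0.378% were called lower there and 0.684% higher. Bcl6 stood at 8.82, 7.7 and 13.2 CPM in WT and 92.5, 86.7 and 98.2 CPM in Ahr HKO on ethanol (3.22 ± 0.21, adjusted p = 0.00312). On the control diet it covered 11.1 to 66.3 CPM in WT and 9.9 to 74.1 CPM in Ahr HKO, so the groups on ethanol were tighter. Without liver 3 of Ahr HKO on ethanol, 1 gene was called there in place of 2. Jak2, Stat5a, Stat5b, Igf1, Socs1 and Onecut1 were called in none of the 5 comparisons, although Stat5b had an adjusted p of 0.0225 between the genotypes on control at a fold change under 1.5 (-0.50 ± 0.13).

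**Figure D4:**
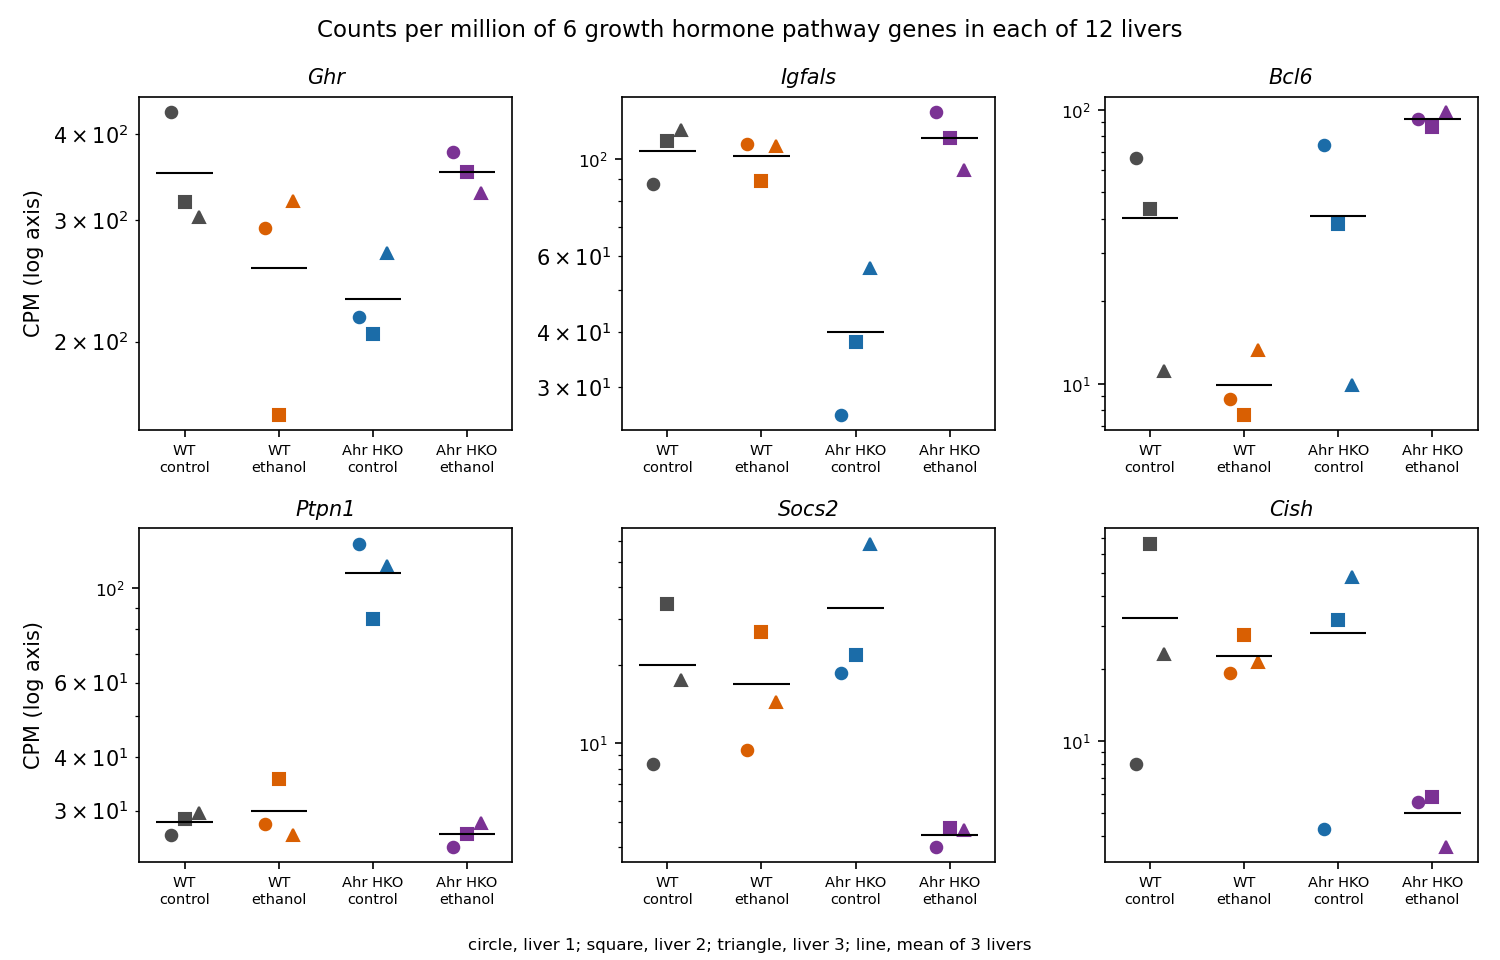
CPM (log axis) of Ghr, Igfals, Bcl6, Ptpn1, Socs2 and Cish in each liver, with a line at the mean of 3 livers. Ptpn1 lies at 84.6 to 127 CPM in Ahr HKO livers on the control diet and at 24.7 to 35.6 CPM in the other groups, and Bcl6 lies at 86.7 to 98.2 CPM in Ahr HKO livers on ethanol.

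The closest relatives of the members were compared with them, because reads of near-identical genes can be split between them. Selenbp1 moved less than Selenbp2. It stood at 409, 379.9 and 394 CPM in WT on control, 262, 226 and 198 CPM in WT on ethanol, 229.6, 220.4 and 217 CPM in Ahr HKO on control and 306, 272 and 352 CPM in Ahr HKO on ethanol. It fell on ethanol in WT (log2 change -0.77 ± 0.12, adjusted p = 0.014) and was lower in Ahr HKO on the control diet (-0.82 ± 0.10, adjusted p = 0.00185). Of the FPKM of both genes together Selenbp2 held 80.5% ± 1.34 (SD, n = 3) in WT on control and 13.7% ± 4.28 in WT on ethanol. In Ahr HKO the share was 49.2% to 82.3% on control and 26.8% to 77.9% on ethanol. With the counts of the pair summed, the WT diet difference was -2.93 on the log2 scale.

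Of 7 other Cyp2d genes with 10 or more counts in a library, 1 was called between the diets in WT. Cyp2d10 stood at 753 to 859 CPM in WT on control and 805 to 1245 CPM in WT on ethanol, with no call there, and rose on ethanol in Ahr HKO (log2 change 0.85 ± 0.12, adjusted p = 0.00437). Cyp2d12 fell in WT from 24.2 to 29.4 CPM to 9.02 to 16.2 CPM (-1.10 ± 0.20, adjusted p = 0.0205). Cyp2d13 and Cyp2d22 rose on ethanol in Ahr HKO (1.05 ± 0.15 and 0.94 ± 0.16), and Cyp2d13 was lower in Ahr HKO on control (-0.84 ± 0.16). Cyp2d11 was not called, with changes under 1.5-fold (0.55 on ethanol in Ahr HKO, adjusted p = 0.0114), and Cyp2d26 and Cyp2d40 passed none of the tests. Cyp2d9 held 43.4% ± 2.24 of the summed Cyp2d FPKM in WT on control, 23.2% ± 1.67 in WT on ethanol, 27% ± 2.66 in Ahr HKO on control and 34.7% ± 5.35 in Ahr HKO on ethanol. Summed over the family the WT diet difference was -0.18 on the log2 scale, against -1.07 for Cyp2d9 alone.

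**Figure D5:**
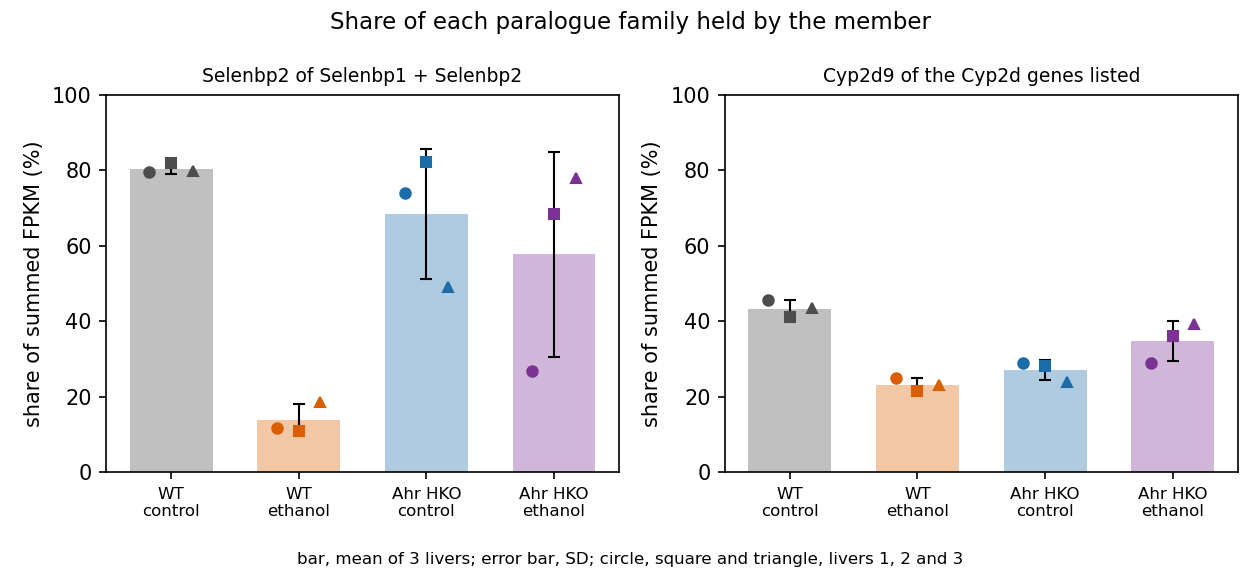
Share of Selenbp2 in the summed FPKM of Selenbp1 and Selenbp2 (left) and of Cyp2d9 in the summed FPKM of the listed Cyp2d genes (right), in percent, with bars at the mean, error bars of 1 SD and a symbol per liver. The Selenbp2 share falls from a mean of 80.5% to 13.7% in WT, and the 3 Ahr HKO livers on ethanol are spread from 26.8% to 77.9%.

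Other elongase genes did not share the pattern of Elovl3. Elovl6, which elongates palmitate, rose on ethanol in WT from 80.8 to 102 CPM to 171 to 241 CPM (2.29-fold, adjusted p = 0.00846), while Elovl1, Elovl2 and Elovl5 passed none of the tests. Elovl7 was scarce, at most 1.89 CPM, and was higher in Ahr HKO on control (2.19 ± 0.54) and lower on ethanol than on control in Ahr HKO (-2.61 ± 0.48). Adgrf5, a receptor of the same family as Adgrf1 found in endothelium, stood at 19.8 to 53.6 CPM. It was called in no comparison, although its adjusted p was 0.0174 between the genotypes on control (log2 difference 0.54) and 0.0179 between the diets in Ahr HKO (-0.53), with a fold change under 1.5 both times. Obp1a, Obp1b, Obp2b, Moxd2, Dbh and Elovl4 had no reads in any liver.

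The nearest tested genes on either side of each member were looked at for a change shared along the chromosome. Of the 12 neighbours 3 were called between the diets in WT. Beside Selenbp2, BC021767 fell (log2 change -1.43 ± 0.23, adjusted p = 0.0138) and its interaction of genotype and diet was 1.41 ± 0.40 (adjusted p = 0.028). Cgn, on the other side, did not pass in WT (-0.44 ± 0.16). It was lower in Ahr HKO on control (-1.04 ± 0.18, adjusted p = 0.00596) and rose on ethanol in Ahr HKO (1.10 ± 0.20, adjusted p = 0.00778), with an interaction of 1.55 ± 0.28 (adjusted p = 0.00385). Beside Cyp2d9, Cyp2d12 fell as given above. Tnfrsf21, a death receptor gene next to Adgrf1, rose (0.77 ± 0.17, adjusted p = 0.0335). Tnfrsf21 was also higher in Ahr HKO on control (1.02 ± 0.16), with an interaction of -1.14 ± 0.24. Bmyc, 3553 bases from Obp2a, did not pass in WT (-0.76 ± 0.21) and was higher in Ahr HKO than in WT on ethanol (1.27 ± 0.16, adjusted p = 0.0257), with an interaction of 1.24 ± 0.36. Nolc1, next to Elovl3, was higher in Ahr HKO on control (1.10 ± 0.13) and fell on ethanol in Ahr HKO (-0.84 ± 0.13), opposite to Elovl3 in sign both times, with an interaction of -1.08 ± 0.23. Gbf1, on the other side of Elovl3, was lower on ethanol in WT by less than 1.5-fold (-0.38 ± 0.09, adjusted p = 0.0471) and was not called. Stx7 and Ctgf beside Moxd1 and Fcna beside Obp2a passed none of the tests, and Adgrf5 beside Adgrf1 is given above.

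For each member the genes with the most similar profile were found by the root mean square difference of their log2 CPM over the 12 livers, each centred on its own mean, among 11874 genes with a mean of 50 counts or more. For Selenbp2 these were Mup7 (0.671), Mup14 (0.736) and Mup12 (0.843), where Selenbp2 itself varied by 2.2 around its mean. For Elovl3 they were Mup1 (0.458), Mup12 (0.513) and Gm2083 (0.567), where Elovl3 varied by 1.72. For Cyp2d9 they were Slc12a7, Sema4g and Hps4 (0.223 to 0.239, against 0.604). Adgrf1 was nearest to Cyp4a12b (1.1), Fmn2 and Cyp4a12a, and Obp2a to Cyp4a12a (1.11), Cyp4a12b and Capn8. Nothing came near Moxd1, for which the closest, Tff3, differed by 2.82 against a spread of 4.45. With log2(FPKM + 1) in place of log2 CPM, 10 of the 18 genes were the same. Among the members themselves the closest pair was Elovl3 and Selenbp2 (1.09) and the farthest Moxd1 and Cyp2d9 (4.3).

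Markers of other liver cells were counted beside the members in every comparison. In Ahr HKO all 8 Kupffer cell markers fell on ethanol, and their sum was 314 to 898 CPM on control and 201 to 248 CPM on ethanol. Of 8 leukocyte markers 3 fell (sums 18.8 to 32.5 and 8.79 to 10.9 CPM), and of 8 endothelial markers 3 fell (342 to 366 and 259.9 to 287 CPM). In WT the Kupffer cell markers summed to 357 to 469 CPM on control and 318 to 820.3 CPM on ethanol, and none was called between the diets, none at an unadjusted p under 0.05. Between the genotypes on ethanol all 8 Kupffer cell markers had lower values in Ahr HKO (median log2 difference -1.16, against -0.01 over all genes), 7 of them without overlap of the livers, as 27.9% of all genes. All 8 leukocyte markers did as well (median -1.17, 5 without overlap), while edgeR called none of these 16, with 7 and 6 at an unadjusted p under 0.05. All 8 stellate cell markers (median -0.415, 4 without overlap) and all 8 endothelial markers (median -0.367, 1 without overlap) also had lower values, with none called. Of 5 cholangiocyte markers tested 4 were lower, and of 8 hepatocyte markers 6 were higher, again with none called. In the interaction 4 Kupffer cell markers (list median -1.61) and 3 leukocyte markers (-1.08) were called, all lower. In WT 2 leukocyte markers and 2 stellate cell markers rose on ethanol. No marker of Kupffer cells, leukocytes, endothelium, stellate cells or cholangiocytes was without reads in all livers of a group. Their part in the values of the members was not tested.

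The clock genes, which set the daily rhythm of the liver, also moved. In Ahr HKO 6 of 13 rose on ethanol, with a list median of 1.06. Of all genes 10.3% were called higher there and 11.7% lower. Nr1d1 rose from 95 to 107 CPM to 175 to 248 CPM (log2 change 1.12 ± 0.15, adjusted p = 0.00365), and Dbp, Per3, Tef, Cry1 and Nr1d2 rose as well. On the control diet Dbp (-2.08 ± 0.42), Per3 (-1.96 ± 0.45), Nr1d1 (-0.67 ± 0.11) and Bhlhe41 (-0.72 ± 0.15) were lower in Ahr HKO than in WT, as were 10.1% of all genes. In WT, Cry1 and Per1 rose on ethanol and Bhlhe41 fell, where 3.36% of all genes were called higher and 3.4% lower. The part of these differences in the values of the members was not tested.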

How the data were processed

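RNA-seq of 12 mouse livers, 3 per group, was analysed from the table the authors deposited. It holds read counts per gene, deposited without normalization, and FPKM, which the authors scaled by gene length and library size. TPM, a further scaling by the authors to a fixed total, was not used. The submitters' processing notes name FastQC 0.11.7, Trimmomatic 0.38, HISAT2 2.1.0, Bowtie2 2.3.4.1, StringTie 1.3.4d and the mm10 build, without saying which made the counts or whether counting used strand. Genes were filtered with filterByExpr, scaled with TMM and tested with edgeR 4.0.16 (quasi-likelihood, R 4.3.3) for each pair of groups, with adjustment over 14038 genes by Benjamini-Hochberg. The interaction was fitted on all 12 libraries. The scripts were tested on simulated data. Intervals from 3 counts cover counting error only.

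Members and lists were chosen with earlier results of these data known. Of other genes, those named were the growth hormone axis, the paralogues with 10 or more counts in a library, the nearest tested genes, the clock genes called, and per list at most 8 called genes with the largest fold change. Some genes of the lists are not reported here by name. Profile likeness used log2 CPM with a prior count of 2. Gene positions came from RefSeq, where 24462 of 24532 genes matched by Entrez identifier. Figures were drawn with matplotlib 3.10.9. The alternatives were DESeq2 1.42.0, upper-quartile scaling, no filter, a minimum of 10 counts throughout, a joint fit of the 12 libraries, a replicate block, limma 3.58.1 on quantile-normalized log2(FPKM + 1) and log2(FPKM + 0.1), summed paralogues, and leaving out livers.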

Additional observations from a re-analysis of the deposited data

Results flagged for a closer look

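For the results below, a test of the interaction of genotype and diet (edgeR, all 12 libraries, adjusted over all tested genes) found that the effect of ethanol differed between Ahr HKO and WT livers. The values are the log2 change on ethanol in Ahr HKO minus that in WT. None of these genes is among the 6. The lists were written with earlier results of these data known, so these calls are not independent of how the members were chosen.

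Of the growth hormone pathway, the difference was 1.07 for Ghr (adjusted p = 0.0402), 1.52 for Igfals (adjusted p = 0.00896) and 3.2 for Bcl6 (adjusted p = 0.0307). It was -2.64 for Socs2 (adjusted p = 0.0335) and -2.12 for Ptpn1 (adjusted p = 0.000314). The feedback inhibitor and the phosphatase thus went down with ethanol in Ahr HKO relative to WT, while the receptor, the IGF1 carrier subunit and the repressor went up. The repressor, Bcl6, was called between the diets in neither genotype. It stood at 11.1 to 66.3 CPM on control and 7.7 to 13.2 CPM on ethanol in WT. Of all genes 11.2% were called with a positive difference and 11.1% with a negative one. The count of 5 became 2 without liver 1 of WT on the control diet, without liver 1 or without liver 3 of Ahr HKO on ethanol, and 3 without liver 2 of WT on either diet or liver 2 of Ahr HKO on ethanol.

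Among the paralogues the difference was 1.27 for Selenbp1 (adjusted p = 0.00101), 1.35 for Cyp2d13 (adjusted p = 0.00119), 0.954 for Cyp2d22 (adjusted p = 0.0189) and -3.7 for the scarce Elovl7 (adjusted p = 0.00724). Reads that Selenbp1 or the Cyp2d genes share with the members make these values uncertain.

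Of the male-biased genes the difference was 11.7 for Hsd3b5, 6.47 for Mup7, 6.45 for Cyp4a12b, 5.58 for the organic anion transporter Slco1a1, 5.12 for Cyp4a12a, 4.73 for Mup1, 3.44 for Susd4 and 2.96 for C6, with adjusted p from 0.000112 for Cyp4a12b to 0.0165 for Slco1a1. The value of Hsd3b5 rests on few reads in WT on ethanol. Of the female-biased genes the difference was -4.98 for the transporter Slc22a27 (adjusted p = 0.0142) and -3.62 for Atp6v0d2 (adjusted p = 0.0174). For Cyp2b9 (adjusted p = 0.0458) and Cyp2a4 (adjusted p = 0.0239) the difference was negative too, and no size is given because the WT livers on the control diet had no reads. The female-biased count of 4 became 2 without liver 3 and 7 without liver 2 of Ahr HKO on the control diet.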

How the results depend on the processing

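Of 308 recounts of calls, 234 stayed within 1.5 times and 74 moved further, and 417 of 457 recomputed fold changes of the members moved by less than 1 SD between replicates. No fold change of a member that the rule had called changed sign. Some that it had not called did. Selenbp2 for ethanol in Ahr HKO ran from -0.842 to 0.593 and kept its sign in 11 of 16 alternatives. Obp2a for the genotypes on control fell to -0.191 without liver 1 of Ahr HKO. Moxd1 for the genotypes on ethanol fell to -1.236 without liver 3 of Ahr HKO. The causes were not tested, except that a stricter filter tests fewer genes and the pseudocount shrinks scarce genes. DESeq2 called 1444 genes for ethanol in WT (edgeR 949), with 1 growth hormone gene, and 1040 for the genotypes on ethanol (edgeR 149), with 16 male-biased, 5 female-biased and 4 growth hormone genes. It called 8 male-biased genes for ethanol in Ahr HKO and 7 female-biased genes for the interaction. Without a filter the female-biased count for the genotypes on ethanol was 0. With 10 counts in every library the female-biased counts were 5 for ethanol in WT, 0 for the genotypes on ethanol, 2 for ethanol in Ahr HKO and 1 for the interaction. With the 12 libraries fitted together, 5 female-biased genes were called between genotypes on control, and 429 genes on ethanol, 13 male-biased and 0 female-biased. With limma on log2(FPKM + 1) the totals were 1787 (genotypes on control), 83 (genotypes on ethanol) and 1795 (ethanol in Ahr HKO), with 0 female-biased genes for the genotypes on ethanol, as with 0.1 as pseudocount, and 3 growth hormone genes for the interaction. With log2(FPKM + 1) the WT diet difference was -4.09 for Moxd1, -1.88 for Adgrf1 and -0.91 for Obp2a. Without both Ahr HKO livers that stood apart, an alternative chosen after seeing the data, 9 female-biased genes were called for ethanol in Ahr HKO and 2 growth hormone genes for the interaction.

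Over all tested genes, deviations of same-numbered replicates from their group means correlated with r from -0.09 to 0.18. For differently numbered livers r was -0.18 to 0.11. Such values cannot tell whether livers shared a litter or a day of processing. The second number in the labels was not tried. The main fits used no pairing. With a replicate block the calls for ethanol in WT were 58 in all, 7 male-biased and 4 female-biased. For the genotypes on control they were 624, with 3 male-biased and 2 growth hormone genes, and on ethanol 45, with 5 male-biased. For ethanol in Ahr HKO the block left 0 in all and in each list (2 female-biased for the interaction).

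Leaving out 1 liver at a time gave 366 to 841 calls for ethanol in WT (female-biased 7 to 11, growth hormone 0 to 1) and, for the genotypes on control, male-biased 5 to 9 and female-biased 2 to 5. For the genotypes on ethanol it gave 7 to 189, male-biased 2 to 10, female-biased 0 to 3 and growth hormone 1 to 3. For ethanol in Ahr HKO it gave male-biased 2 to 6 and female-biased 4 to 9, and for the interaction female-biased 2 to 7 and growth hormone 2 to 6. Depth limits Obp2a in WT on ethanol, and Moxd1 and Adgrf1 there, to a few reads or none.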
